A study of Homo sapiens with 4 samples.

Results

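The comparison of the light polysome library with the monosome library asks which mRNAs of HEK293T cells were found under a few ribosomes rather than under a single one. HEK293T is a human embryonic kidney line that carries the SV40 large T antigen. Cultures of 1 kind, held in cycloheximide at 100 ug/mL for 10 min to stop ribosomes in place, were spread over a sucrose gradient and collected as 4 pools: RNA free of ribosomes, monosomes, light polysomes and heavy polysomes. The pools differ in nothing else that the labels name. Each gave 1 library of capped, polyadenylated RNA read directly on nanopores. Members are the 7527 genes, of 19948 in the table, whose counts in the 4 libraries add up to 30 or more; 106 genes had exactly 30 counts and were kept, and 83 had 29 and were not. Each gene's share of the light polysome library was divided by its share of the monosome library after adding 0.5 to both counts, and the log2 of that ratio was set relative to the median gene. This value is called the relative log2 ratio below. A positive value means that the gene lay further toward the light polysomes than the median gene did.

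An mRNA being translated carries a number of ribosomes set by how often they start, how fast they move and how long the reading frame is. A single ribosome, an 80S monosome, is found on mRNAs with very short frames, on mRNAs that rarely start, and on mRNAs read mainly through a short upstream frame. TOP mRNAs, which code for ribosomal proteins and several translation factors, begin with a C followed by a run of pyrimidines, and their ribosome loading is known to follow mTOR activity through the cap-binding protein LARP1.

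The monosome library held 1329334 counts on genes and the light polysome library 1499401, so that 1 count was worth 0.752 and 0.667 CPM (each count divided by its library's total and put on one scale). Of the tested genes 39 had no count in the monosome library and 6 had none in the light polysome library, while 2348 had none in the shallow free library of 355509 counts; a count of 0 there allows up to 3 counts, or 8.44 CPM. The heavy polysome library held 1564531 counts. With 1 library per pool, there is no replicate spread to measure a difference by and no test could be made. Intervals of single genes are exact 95% binomial ones (Clopper-Pearson) and cover counting error alone. Intervals beside the median of a list or class describe the spread of its members, taken as independent draws. The members share both libraries, so those intervals are no measure of replicate error. Shares within a library cannot tell a smaller amount of one mRNA from a larger amount of the others, and fewer cells of a type cannot be told apart from less RNA per cell. Of 18 genes that mark liver, blood, connective tissue, endothelium, glia, skin, heart, lung or pancreas none reached 30 counts, and of 11 genes typical of HEK293 cells 6 did, among them SIX2 with 125 and NEFL with 37 counts in the light polysomes.

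Relative to the median gene, 1125 genes were called higher in the light polysomes (14.9% of those tested) and 1226 lower (16.3%), 31.2% in all. A call needed a difference of at least 2-fold from the median gene and an interval clear of it. A 4-fold difference was passed by 277 genes upward and 349 downward. The share of the median gene was itself 1.98-fold larger in the light polysome library, and the ribosomal protein genes went from 55.0% of the monosome counts to 31.7% of the light polysome counts. Measured as plain shares of the library, 3310 genes were higher and 278 lower, so every direction below is one relative to the median gene unless it says otherwise.

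**Figure D1:**
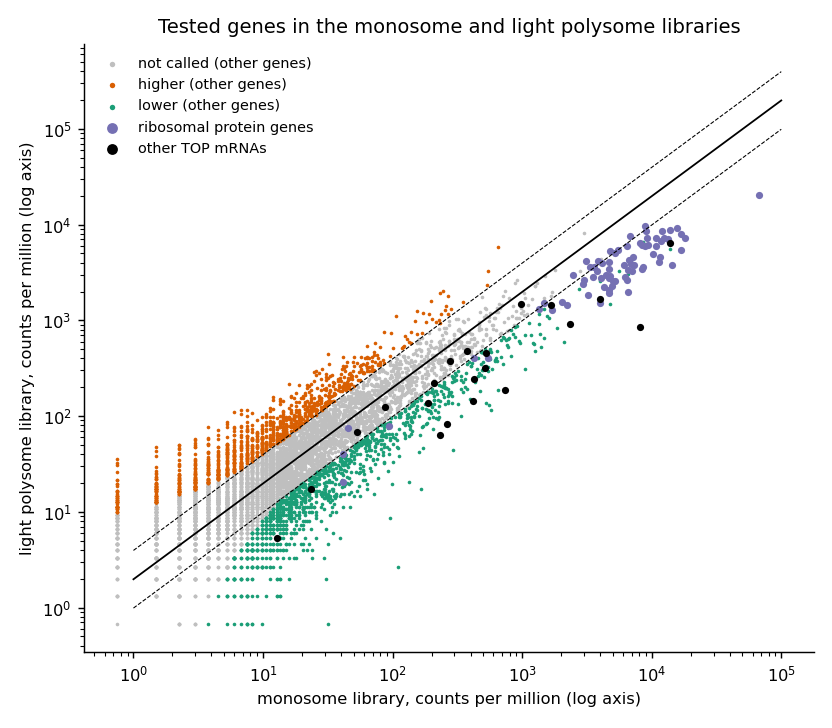
CPM of each tested gene with a count in both libraries, monosome on the horizontal and light polysome on the vertical log axis. The solid line is the median gene and the dashed lines lie 2-fold from it. Ribosomal protein genes and other TOP mRNAs, called or not, have their own colours and lie below the solid line. Points called higher or lower lie outside the dashed lines. Of the 1125 genes called higher and 1226 called lower, those without a count in either library of the pair are not drawn.

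Among the 15 genes furthest toward the monosomes, of those with 100 or more counts over both libraries, 3 were ribosomal protein or other TOP mRNAs and 4 had frames under 100 codons. Of all 2559 genes that met this minimum, 93 were ribosomal protein or other TOP mRNAs and 175 had such short frames. TPT1 (chromosome 13, 45333471 to 45341370), which codes for the abundant growth-linked protein TCTP, had 5710 counts in the free, 10827 in the monosome, 1282 in the light polysome and 2222 in the heavy polysome library. Its relative log2 ratio was -4.24 (-4.32 to -4.15), which is 18.8-fold lower than the median gene. COIL, the scaffold of the Cajal body, had 128 monosome and 13 light polysome counts and lay at -4.41 (-5.41 to -3.63). CSE1L (chromosome 20, 49046246 to 49096960), the export receptor that recycles importin alpha, had 219 and 26 counts and lay at -4.21 (-4.88 to -3.64). The heavy library held 43 and 106 counts of them, so their shares of the light polysome library were below those of the pools on both sides. The lowest value of all belonged to MTRNR2L12, at -6.18 (-8.24 to -4.96), with 341, 146, 4 and 2 counts along the gradient. That gene is a nuclear copy of part of the mitochondrial 16S ribosomal RNA, so its reads may belong to the organelle's RNA. NHSL2 at -3.65 shares exon sequence with an annotated pseudogene on the same strand and is likewise uncertain.

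Several mRNAs at the monosome end have short frames. SELENOW, a selenoprotein of 87 codons, had 42, 737, 197 and 19 counts along the gradient and lay at -3.06 (-3.30 to -2.83). TMEM167A, a Golgi membrane protein of 72 codons, lay at -2.93 (-3.16 to -2.70) with 703 monosome and 206 light polysome counts. The monosome library held the largest CPM of the 4 pools for both, and for 12 of the 15 lowest genes. EIF2A, an initiation factor outside the eIF2 complex, lay at -3.20, the tRNA-modifying enzyme TYW3 at -2.85 and the kinase MAP3K13 at -2.89. ZFAND1 lay at -3.32.

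The 15 genes furthest toward the light polysomes, under the same minimum, held no ribosomal protein or TOP mRNA, against 93 among the 2559 genes that met it. Their frames had a median of 401 codons, those of the 15 lowest genes one of 268 and those of the 2559 genes one of 261. Among all called genes the order was the other way. The median was 372 codons for genes called higher and 403.5 for genes called lower. DOHH (chromosome 19, 3490822 to 3500940), the hydroxylase that completes the hypusine of eIF5A, had 2 counts in the free, 8 in the monosome, 166 in the light polysome and 147 in the heavy polysome library. It lay at 3.13 (2.21 to 4.45). CCDC85C (chromosome 14, 99500180 to 99604026) had 5 monosome and 116 light polysome counts and lay at 3.25 (2.11 to 5.03), the highest of the genes with 100 counts. The better counted RNF187, a RING finger ubiquitin ligase, had 7, 42, 662 and 775 counts and lay at 2.80 (2.37 to 3.31). SBF1, a myotubularin-related protein of 1893 codons, had 2, 21, 323 and 195 counts and lay at 2.75 (2.15 to 3.50); its CPM was larger in the light than in the heavy polysomes. Others of the 15 highest were the cell cycle regulator CABLES1 (3.02), the nucleotidase CANT1 (2.95), the deacetylase HDAC5 (2.91), the carboxylesterase CES2 (2.90), the synaptic adhesion protein LRFN4 (2.90), the cargo receptor SURF4 (2.88) and the transcription factor CEBPA (2.73). The group also held TMEM129, TLNRD1, TRIM41 and JOSD1, between 2.65 and 2.77. The monosome counts of these 15 genes ran from 5 to 42 and set the width of their intervals. For 12 of the 15 the light polysome library held the largest CPM of the 4, and for the other 3 the heavy polysome library did. None of the 15 had a frame under 100 codons, as against 4 of the 15 lowest genes and 175 of all 2559 genes that met the minimum of 100 counts.

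Every tested ribosomal protein mRNA lay on the monosome side of the median gene. All 75 were below it, 64 were called lower and none higher, and their median was -1.61 (interval of the median -1.79 to -1.42, members taken as independent draws), against 16.3% lower and a median of 0 over all tested genes. The list has 80 genes; the 5 others stayed under the minimum, among them RPS10, RPL17 and RPL36A with at most 4 counts each. As plain shares, 66 of the 75 had a lower CPM in the light polysomes and 9 a higher one. The 30 small-subunit genes had a median of -1.77 (-1.96 to -1.40) with 26 called lower, and the 45 large-subunit genes one of -1.55 (-1.74 to -1.30) with 38 called lower. The intervals overlap.

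Within the ribosomal proteins the values spread over more than their counting error. RPL41 (chromosome 12, 56116586 to 56117943), a basic peptide of the large subunit, had 838 counts in the free, 19019 in the monosome, 5665 in the light polysome and 459 in the heavy polysome library, and lay lowest at -2.90 (-2.95 to -2.86). RPL5, which binds 5S ribosomal RNA, lay at -2.71, and the stalk protein RPLP1 at -2.64 (-2.68 to -2.60). RPS2 (chromosome 16, 1962052 to 1964860) had 53794, 90217, 30541 and 7910 counts along the gradient and lay at -2.72 (-2.74 to -2.70); it shares exon sequence with an annotated pseudogene. At the other end stood FAU, the fusion precursor of the small-subunit protein eS30, at -0.25 (-0.71 to 0.23) with 60 and 113 counts, and RPL3, a core protein of the large subunit near the peptidyl transferase centre, at -0.71 (-0.78 to -0.65). RPL36 at -0.87 and RPL18 at -0.85 were among the 11 that missed the 2-fold line. Across the 75 genes the ratio had a Spearman rho of -0.19 with coding length, 0.28 with the share of codons ending in G or C and -0.33 with the counts in the pair; the genes share both libraries, and these are descriptions. Many ribosomal protein genes have near-identical retrocopies, and 48 of the 75 overlap an exon of another annotated gene, so single values are uncertain where reads could be split.

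The starts of these mRNAs are shown because the run of pyrimidines defines the class. Each line runs from 10 bases before to 15 bases from the RefSeq start (GRCh38.p14), with the C at the start and the unbroken run of C or T after it in capitals. The first 7 are of mRNAs called lower, of which EEF1B2, a listed TOP mRNA, has no such run at its RefSeq start; RPL3 and EEF2 are TOP mRNAs that were not called, and EIF5A and TPI1 were called higher.
RPL41 (chr12:56116623-56116647, plus strand): cttcgcctttCTCTCggccttagcg
RPS18 (chr6:33272065-33272089, plus strand): cacttccgctCTCTCTTCCacagga
RPLP1 (chr15:69452808-69452832, plus strand): ggcgcgagagCCCCTTTCCTCagct
TPT1 (chr13:45341169-45341193, minus strand): ctgagtcggcCTTTTCCgcccgctc
EEF1A1 (chr6:73521018-73521042, minus strand): cgtgaacgttCTTTTTCgcaacggg
EEF1B2 (chr2:206159599-206159623, plus strand): aagtggccccagcctcgaggccggg
RACK1 (chr5:181243892-181243916, minus strand): gcttttctctCTCTCTTTCactgca
RPL3 (chr22:39319609-39319633, minus strand): gccgaccggcCTCTaccggcgggat
EEF2 (chr19:3985449-3985473, minus strand): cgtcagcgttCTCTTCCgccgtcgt
EIF5A (chr17:7306989-7307013, plus strand): tgggaacccgaccacactagcgcgc
TPI1 (chr12:6867521-6867545, plus strand): gcgactgcgcgcagacactgacctt

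A start of C followed by at least 4 pyrimidines, read on the transcript's strand only, was found at the RefSeq start of 41 of 60 tested ribosomal protein genes with an entry, of 9 of 12 other TOP mRNAs and of 392 of all 6131 tested genes with one (6.39%). Outside both lists 342 genes had such a start, and their median ratio was -0.01, against 0.01 for those without it. Among them 20.2% were called lower, against 15.2% of those without. Within the ribosomal protein list the split went the other way, with 80.5% called lower with such a start and 89.5% without it, and both medians were -1.57. Which of these differences exceed counting or sampling error was not tested. The RefSeq start is 1 position per gene and was not measured in these cells, so a match or its absence describes these letters only.

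TOP mRNAs that do not code for ribosomal proteins also lay on the monosome side in this pair of libraries, but not along the whole gradient. All 21 tested members were below the median gene, 15 were called lower and none higher, and their median was -1.70 (-2.35 to -0.90). Calls over all tested genes were 14.9% higher and 16.3% lower. EEF1G had no count. EEF1A1, which delivers aminoacyl-tRNA to the ribosome, had 676 counts in the free, 18499 in the monosome, 9575 in the light polysome and 12347 in the heavy polysome library and lay at -2.11 (-2.14 to -2.07). Its partner EEF1B2, the exchange factor, lay at -2.35 (-2.44 to -2.25), and PABPC1, the main cytoplasmic poly(A)-binding protein, at -2.96 (-3.16 to -2.77) with 983 and 282 counts. The eIF3 subunits EIF3E (-2.83) and EIF3H (-2.67) and the histone chaperone NAP1L1 (-2.51) lay near them. RACK1, a scaffold on the small subunit, had 1372, 5303, 2533 and 8742 counts along the gradient and lay at -2.22 (-2.29 to -2.15). NPM1, a nucleolar chaperone, lay at -1.19 and the splicing factor HNRNPA1 at -1.18, with 9715 and 9367 counts in the heavy library against 681 and 2175 in the light one. The translocase EEF2 was closest to the median gene at -0.39 (-0.49 to -0.29), with 1293 and 2208 counts, followed by PABPC4 at -0.48, EIF3G at -0.56, VIM at -0.64, EIF3F at -0.65 and EEF1D at -0.90, none of them called. The median frame of this list had 462 codons and that of the ribosomal proteins 151. The list made up 3.54% of the monosome, 1.57% of the light polysome and 3.45% of the heavy polysome counts. Ribosomal protein genes made up 55.0%, 31.7% and 19.2% of the same libraries. For heavy against light polysome, which shares the light library, the list medians were 0.92 and -1.45.

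**Figure D2:**
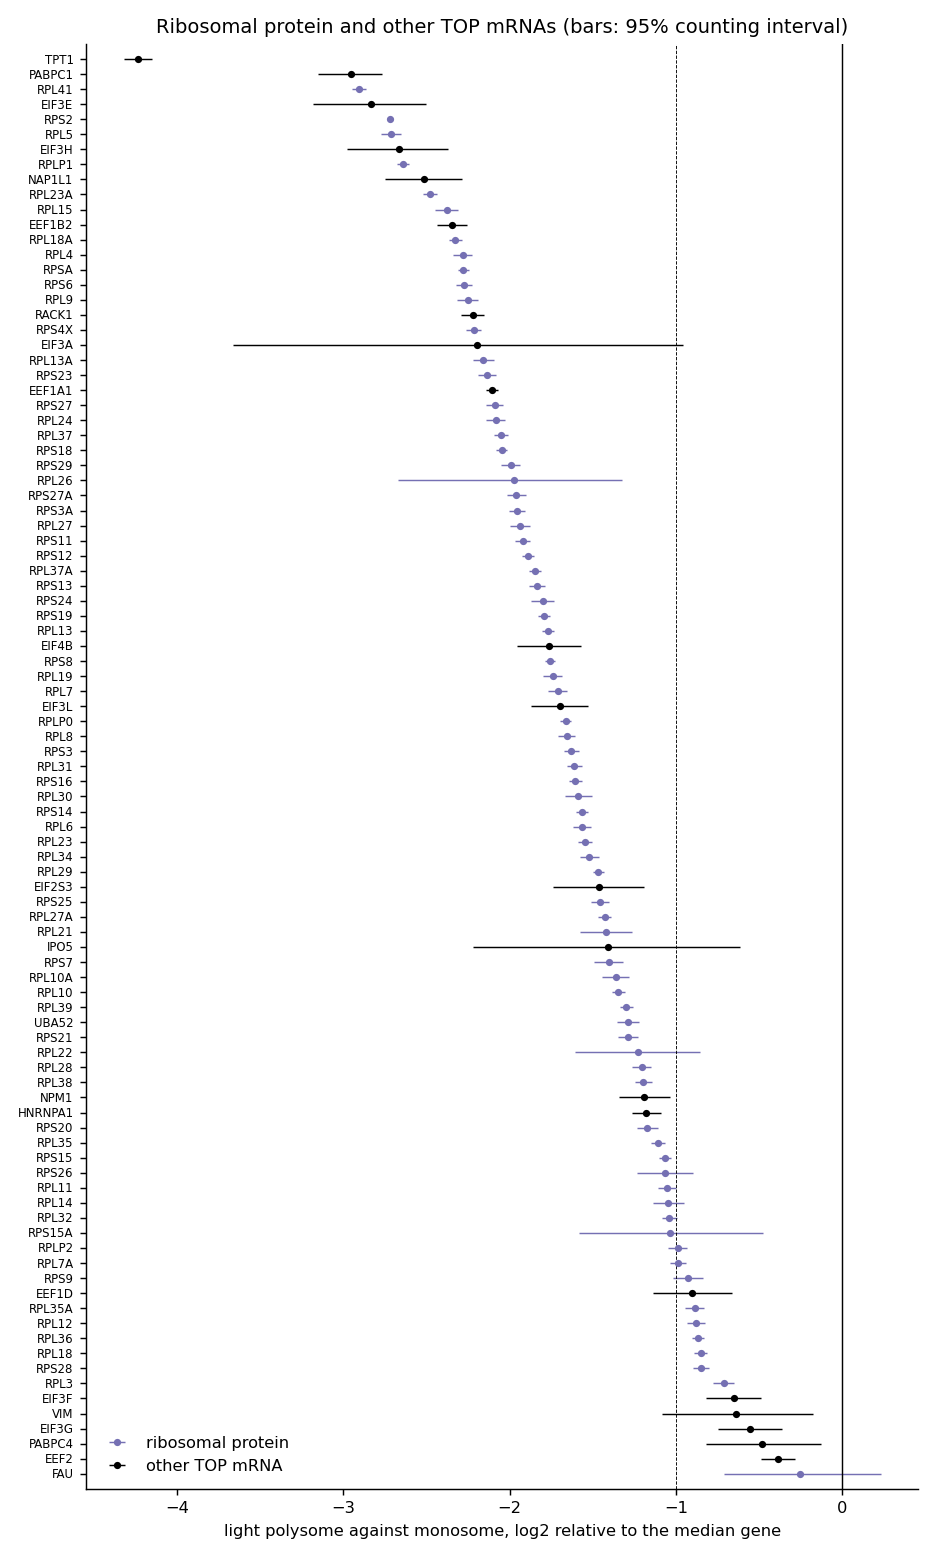
Relative log2 ratio, light polysome against monosome, of tested ribosomal protein mRNAs (1 of the 75 is not drawn) and the 21 other TOP mRNAs in order, with 95% counting intervals as bars. All points drawn lie left of the median gene at 0, from TPT1 at -4.24 to FAU at -0.25; the dashed line marks the 2-fold difference.

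Short frames lay toward the monosomes. The 205 tested genes with frames under 100 codons had a median of -0.64 (-0.78 to -0.49), and 9 of them were ribosomal protein genes. Of the 205, 5.37% were called higher and 32.7% lower, against 14.9% and 16.3% of all tested genes. Without those 9 the median was -0.61. The 4 longer classes lay at 0.07 (from 100 to under 200 codons), 0.11 (from 200), -0.09 (from 400) and 0.03 (from 800). The medians of the longer classes moved with the minimum count: from 800 codons it was 0.48 with a minimum of 100 counts summed over the pools and -0.14 with one of 10. Across 7464 genes with an annotated frame the Spearman rho with coding length was -0.01; the same rho was 0.33 for heavy against light polysome, a comparison that shares the light polysome library. RPL41 shows how short such a frame can be. Its whole reading frame in GENCODE release 29, without the stop codon, has 75 bases, shown along its plus strand with G or C at the third codon position in capitals.
RPL41: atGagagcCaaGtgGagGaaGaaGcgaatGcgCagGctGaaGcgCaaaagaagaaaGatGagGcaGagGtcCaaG

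Short frames were not all alike. OST4, a subunit of the oligosaccharyltransferase with 37 codons, lay at -1.25 with 1025 and 964 counts, and the ATP synthase subunits ATP5ME (69 codons) and ATP5F1E (51 codons) at -1.21 and -0.99. TMSB10, an actin-binding peptide of 44 codons, lay at -0.76, while COX7C of cytochrome oxidase (63 codons) was above the median gene at 0.35 with 945 and 2690 counts. The highest short frame was NRGN, a calmodulin-binding protein of 78 codons, at 1.57 with 46 and 307 counts. The number of ATG triplets before the frame went little with the ratio: genes with none, 1 and 2 or more had medians of -0.02, 0.04 and 0.01.

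Base composition of the frame went with the ratio across the whole table. This feature was examined after the ratios had been seen. In the decile of genes with the fewest codons ending in G or C (22.4% to 37.0%), the median ratio was -1.14 (-1.20 to -0.99), with 0.803% called higher and 45.1% lower. In the decile with the most (81.8% to 100.0%) it was 0.64 (0.55 to 0.71), with 31.7% called higher and 3.48% lower. Calls over all tested genes were 14.9% higher and 16.3% lower. The medians of the deciles between were, in order, -0.81, -0.53, -0.20, 0.05, 0.27, 0.32, 0.47 and 0.63. The Spearman rho across 7464 genes was 0.49, and 0.50 without the ribosomal protein genes. It was uneven over coding length: 0.29 under 100 codons, 0.25 from 100, 0.46 from 200, 0.59 from 400 and 0.62 from 800 codons. With the 2 outer deciles limited to genes with at least 10 counts in each library, the medians were -1.04 and 0.40.

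The same feature had a rho of -0.26 for heavy against light polysome, 0.10 for heavy polysome against monosome and 0.01 for monosome against free. These comparisons share libraries and are given side by side only. The light polysome library thus held larger shares of GC-ending mRNAs than the library on either side of it. How base composition entered the preparation or base calling of each library was not tested, and with 1 library per pool the pool and the library cannot be told apart.

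The frames at both ends show the difference. The first 20 codons of 2 genes at the monosome end and 2 at the light polysome end follow in the transcript's direction (GENCODE release 29, hg38; plus strand for CSE1L and minus strand for the others), with G or C at the third codon position in capitals. COIL lies on chromosome 17, 56938187 to 56961054. In the whole frame such codons made up 34.5% in CSE1L, 41.8% in COIL, 90.0% in CCDC85C and 89.4% in DOHH.
CSE1L: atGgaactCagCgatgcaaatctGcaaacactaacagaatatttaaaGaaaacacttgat
COIL: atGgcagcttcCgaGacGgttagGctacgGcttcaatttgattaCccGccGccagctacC
CCDC85C: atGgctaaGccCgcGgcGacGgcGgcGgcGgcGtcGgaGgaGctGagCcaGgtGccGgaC
DOHH: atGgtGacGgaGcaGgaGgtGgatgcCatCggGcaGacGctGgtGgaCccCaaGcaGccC

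TOP mRNAs lay below other genes of like composition, and other lists also differed from theirs. Each of the 75 ribosomal protein mRNAs lay below the median of the other genes in its decile, by 1.67 in the median on the log2 scale, and each of the 21 other TOP mRNAs did so, by 1.38 in the median. With the length class held too, the differences were -1.66 and -1.30. The ZNF zinc finger genes lay 0.23 above their deciles in the median, with 78 of 125 above. The RAB, ARF and ARL GTPases lay 0.78 above their deciles in the median, with 36 of 48 above. In their median gene 50.5% of codons end in G or C. The aminoacyl-tRNA synthetases lay at -0.67 relative to their deciles in the median, with 15 of 22 below. What part base composition has in the position of any list was not tested.

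**Figure D3:**
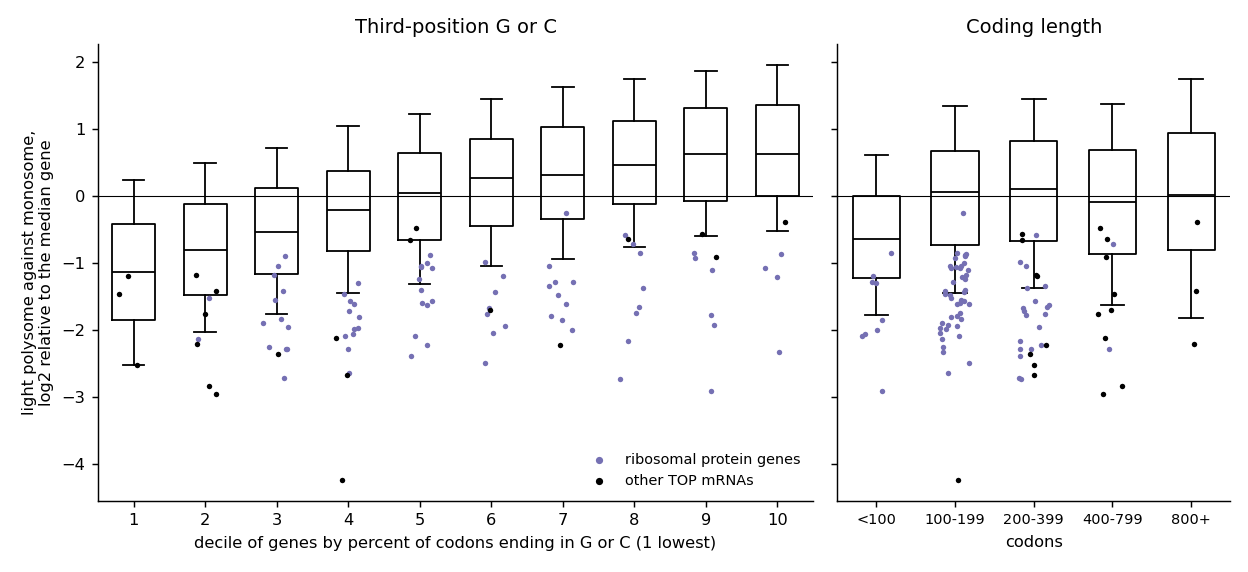
Relative log2 ratio of tested genes by deciles of the percentage of codons ending in G or C (left) and by coding length in codons (right). Boxes span the quartiles with the median as a line, and whiskers the 10th to 90th percentiles. The medians climb from -1.14 to 0.64 across the deciles, whereas the length classes differ mainly in the lower median of -0.64 under 100 codons. On the left each ribosomal protein and other TOP mRNA lies below the median of the other genes in its decile.

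Translation factors outside the ribosome held calls in both directions, as did all tested genes (14.9% higher and 16.3% lower). These lists overlap with the other TOP list, so some lower calls are the same genes again. They are EIF2S3, EIF3A, EIF3E, EIF3H, EIF3L, EIF4B and PABPC1. In eIF2 and eIF2B 1 of 9 was higher (EIF2B3) and 2 were lower (EIF2S3 and EIF2B4). Of 13 eIF3 subunits 7 were called lower and none higher (median -1.19, -2.20 to -0.05); 5 of these are EIF3D, EIF3I, EIF3M, EIF3A and EIF3L, the last with 692 and 476 counts at -1.70. EIF3B, a scaffold subunit, was highest at 0.91 with 27 and 115 counts and was not called. Of 18 genes of the eIF4 group 5 were lower (PABPC1, LARP4, EIF4B, EIF4A2 and the cap-binding EIF4E at -1.32, which overlaps an annotated pseudogene) and 2 higher: EIF4H, a helper of the eIF4A helicase, at 1.67 (1.26 to 2.13) and the scaffold EIF4G1 at 1.35 (0.80 to 1.98). LARP1, which binds the TOP start, lay at -0.05 (-0.69 to 0.63) with 30 and 65 counts.

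EIF1, which guards the choice of the start codon, had 341 counts in the free, 730 in the monosome, 4911 in the light polysome and 3014 in the heavy polysome library. It lay at 1.59 (1.48 to 1.71), and its paralogue EIF1B at 1.25 (0.91 to 1.63). Both have 113 codons. EIF5A, the hypusine-bearing factor, had 72, 326, 3001 and 3591 counts and lay at 2.04 (1.88 to 2.21), the highest of the elongation and termination list, where 3 of 12 were lower (EEF1A1, EEF1B2 and GSPT1) and 1 higher. EEF1A1 and EEF1B2 are also members of the other TOP list. ABCE1, which splits ribosomes after termination, was lower at -1.68 with 16 and 11 counts. No aminoacyl-tRNA synthetase was called higher and 9 of 22 were lower, with a median of -0.82 (-1.37 to -0.32), or 0.16 as plain shares. The calls in these lists stand beside 14.9% higher and 16.3% lower over all tested genes. LARS and the scaffold AIMP1 shared the lowest value, -2.74, each with 19 monosome and 6 light polysome counts, and QARS lay at -1.09 with 118 and 124.

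The respiratory chain lists had medians below the median gene, which turned to 0.70 for complex I and 0.59 for complexes II to IV as plain shares of the library. Over all tested genes 14.9% were called higher and 16.3% lower. Of 33 complex I subunits 9 were lower and none higher (median -0.28, -0.68 to -0.06), from NDUFC1 at -1.69 with 652 and 452 counts to NDUFB7 at 0.86 with 213 and 865. Of 28 genes of complexes II to IV 7 were lower and none higher (-0.39, -0.99 to -0.03), with the assembly factor COX20 lowest at -1.84. The ATP synthase had 6 lower of 18, among them the catalytic subunit ATP5F1B at -1.65, and 1 higher, the ring subunit ATP5MC3 at 1.15 with 290 and 1442 counts. Mitochondrial ribosomal proteins had 15 lower and 4 higher of 73 (median -0.09, -0.41 to 0.01), against which the cytosolic ribosomal proteins lay at -1.61. MRPL51 lay at -2.13 with 2475 and 1261 counts, and MRPL24 at 1.48 with 25 and 158, one of 4 called higher with MRPL49, MRPS16 and MRPS34. Of 31 import genes 4 were higher (TOMM34, TOMM40L, TIMM22 and TIMM23) and 4 lower (TOMM7, TIMM21, TIMM9 and CHCHD3). CHCHD3 at -2.06 and COMMD1 at -2.30, a gene with 18454 monosome counts, each overlap an exon of an annotated pseudogene on the same strand, and their counts may hold its reads.

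Chaperones and the proteasome held members at both ends, where all tested genes had 14.9% higher and 16.3% lower. Of 24 heat shock genes 7 were lower, with HSPH1 at -3.56 on 18 and 3 counts, HSP90AA1 at -2.33 and HSPB1 at -1.72, while PTGES3, the p23 cochaperone, was the single one called higher at 1.39 (1.21 to 1.59). Endoplasmic reticulum chaperones had 5 lower of 14 (HSPA5, HSP90B1, CALR, CANX and PDIA3) and 2 higher, SDF2L1 and CRELD2. Of 29 proteasome subunits 7 were lower and 1 higher: PSMB2, a core subunit, had 19, 129, 1093 and 1121 counts along the gradient and lay at 1.92 (1.66 to 2.20). In the cytosolic chaperonin CCT5 and CCT8 were lower of 8. In the translocon list 7 of 27 were lower and none higher, with SEC61G, a tail-anchored subunit of 68 codons, at -1.70; this median of -0.33 turned to 0.66 as plain shares.

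RNA-binding and nuclear groups held calls in both directions, as did all tested genes, with 14.9% higher and 16.3% lower. Of 19 Sm and LSm genes 6 were lower and 1, SNRPB, higher; LSM10, of the particle that processes histone mRNA, had 76, 1407, 466 and 33 counts and lay at -2.75 (-2.91 to -2.60). Of 41 hnRNP and SR proteins 8 were lower, with HNRNPH1 at -2.03, and HNRNPAB and U2AF2 were higher. The lower ones include HNRNPA1, which is also in the other TOP list. Nucleolar factors had 10 lower, among them NCL at -1.70 and FBL at -1.47, and 4 higher of 35, POLR1A, EBNA1BP2, MRTO4 and NIP7. Replication and cell cycle genes had 6 higher and 4 lower (CCND2, CDK1, BUB1 and BUB3) of 44 with a median of 0.01; CDK4 lay at 1.45 with 239 and 1456 counts and the GINS subunit GINS2 at 1.64. Of 16 histone variants and high mobility group genes 15 were above the median gene, and 4 were called higher (H2AFZ, H2AFX, H3F3B and HMGB3). HMGN3 was the one called lower, at -1.65. H3F3B and H3F3A, whose frames have 136 codons each, lay at 1.62 (1.44 to 1.82) and 0.46 (0.36 to 0.57); 72.1% and 44.9% of their codons end in G or C.

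Lists with medians above the median gene included membrane traffic and ubiquitin transfer. Their calls stand beside 14.9% higher and 16.3% lower over all tested genes. Of 48 RAB, ARF and ARL GTPases 13 were higher and 3 lower (RAB22A, ARL16 and ARL6), with a median of 0.51 (0.15 to 0.95). ARF4 had 6, 25, 315 and 402 counts along the gradient and lay at 2.47 (1.91 to 3.15), and ARF1, which recruits the COPI coat, had 44, 184, 1122 and 3111 and lay at 1.45 (1.22 to 1.68). Ubiquitin-conjugating enzymes had 9 higher and 3 lower of 30 (UBE2Q2, UBE2V2 and UBE2W; median 0.43, -0.04 to 0.79), with UBE2S, which extends chains for the anaphase-promoting complex, at 1.82 (1.63 to 2.03) and the NEDD8 enzyme UBE2M at 1.74. Zinc finger genes of the ZNF family had 26 higher and 20 lower of 126 tested, of 514 in the table (median 0.43, 0.13 to 0.64, or 0.23 relative to other genes of the same GC decile). A median of -0.03 with a minimum of 10 counts in place of 30 turned that direction. Genes with the SLC symbol prefix, most of them solute carriers, had 27 higher and 15 lower of 131; the prefix also takes in SLC9A3R2 (higher) and SLC4A1AP (lower), which are not transporters. They ran from the ADP/ATP carrier SLC25A6 at -2.41 to the creatine transporter SLC6A8 at 2.05 among genes with 100 or more counts.

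**Figure D4:**
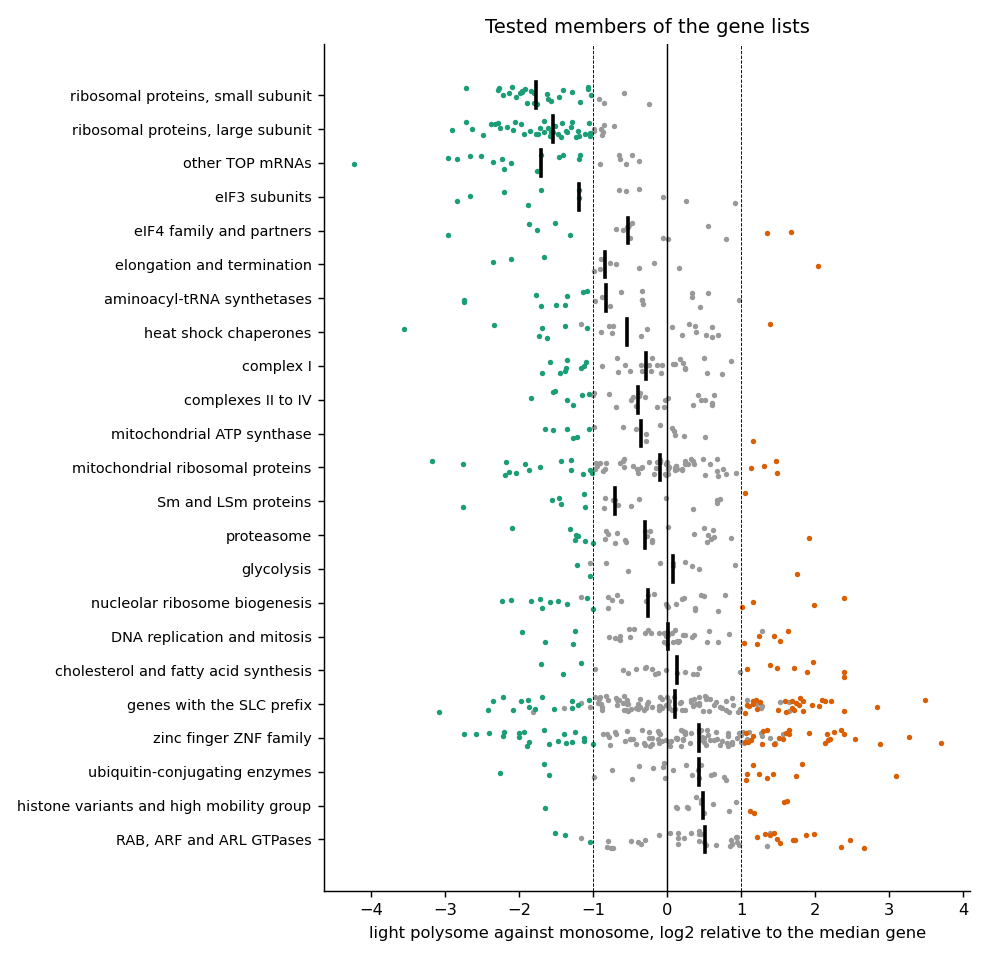
Relative log2 ratio of every tested member of 23 gene lists, 1 point a gene, with the list median as a black bar; green points were called lower, orange ones higher and grey ones neither. The ribosomal protein and other TOP lists hold no point right of 0, whereas the RAB, ARF and ARL list has 13 orange and 3 green points.

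Lists of metabolic enzymes follow, with no test between them. All tested genes had 14.9% called higher and 16.3% lower. Of 13 glycolytic genes TPI1, the isomerase, was higher, with 62, 357, 2681 and 5120 counts and a ratio of 1.75 (1.59 to 1.91), and GPI and GAPDH were lower. GAPDH had 818, 1203, 1300 and 9306 counts and lay at -1.05 (-1.16 to -0.93). The tricarboxylic acid cycle had 5 lower (the 3 subunits IDH3A, IDH3B and IDH3G, SUCLG1 and PDHB) and none higher of 18; their median was -0.41, or 0.58 as plain shares. Cholesterol and fatty acid synthesis had 8 higher and 3 lower (HMGCS1, SC5D and MSMO1) of 27, with a median of 0.13 (-0.30 to 1.07). Actin ACTB lay at -0.14 (-0.28 to 0.01) with 613 and 1245 counts, the actin-binding profilin PFN1 at 1.46, the Arp2/3 subunit ARPC5 at 2.01 and the tubulin TUBA1B at -1.24.

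mRNAs known for regulated starts did not share 1 position. Among all tested genes 14.9% were called higher and 16.3% lower. Both ferritins, which carry an iron-responsive element, were low: FTL had 12074, 2805, 896 and 453 counts and lay at -2.80 (-2.91 to -2.69), and FTH1 had 12416, 6343, 2240 and 1240 and lay at -2.66 (-2.73 to -2.59). Among 22 tested stress mRNAs with upstream frames 3 were higher (SLC35A4, TRIB3 and MIEF1) and 2 lower (SEC31A and SAT1), with a median of 0.05. ATF4 had 272, 3745, 4895 and 670 counts and lay at -0.77 (-0.83 to -0.71), while SLC35A4, read largely through its upstream frame, had 1, 85, 614 and 140 and lay at 1.69 (1.37 to 2.04). ODC1, the first enzyme of polyamine synthesis, lay at -0.52. Selenoproteins had 3 higher (SELENON, SELENOT and SEPHS2) and 2 lower (SELENOF and SELENOW) of 14, with GPX4 at -0.29 on 1399 and 2551 counts.

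Genes of the mTOR pathway were called about as often as all tested genes, of which 14.9% were higher and 16.3% lower. AKT1 had no count in the free, 42 in the monosome, 379 in the light polysome and 190 in the heavy polysome library and lay at 2.00 (1.55 to 2.51), and AKT2 had 0, 41, 385 and 146 and lay at 2.06 (1.61 to 2.58). The frames of AKT1 and AKT2 have 480 and 481 codons, of which 85.0% and 80.5% end in G or C. Of the 2 subunits of the complex that restrains RHEB, TSC2 was higher at 1.65 (0.30 to 3.76) on 4 and 31 counts and TSC1 lower at -1.16 (-1.92 to -0.39) on 31 and 31, and RHEB itself lay at -1.01. In the whole list of 32 tested genes 16 lay above the median gene and 16 below; 4 were higher, the fourth being the TSC partner TBC1D7, and 5 lower, among them the kinase PIK3CB, with a median of -0.02.

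The other pools place these genes along the gradient. Over all 7527 tested genes the heavy polysome library held the largest CPM for 4613, the light polysome library for 2256, the monosome library for 560 and the free library for 98. Of the 1125 genes called higher, the light polysome library held the largest CPM of the 4 for 586 and the heavy polysome library for 538. Of the 1226 called lower, the monosome library held it for 543, the heavy polysome library for 617 and the free library for 66. NPM1, HNRNPA1, NCL and HSP90AA1 are among those highest in the heavy pool. RPL41, SELENOW and LSM10 had lower shares still in the heavy pool, 293, 12.1 and 21.1 CPM against 3778, 131 and 311 in the light one. EIF5A, TPI1 and ARF4 had CPM in the heavy pool of 2295, 3273 and 257 against 2001, 1788 and 210.

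**Figure D5:**
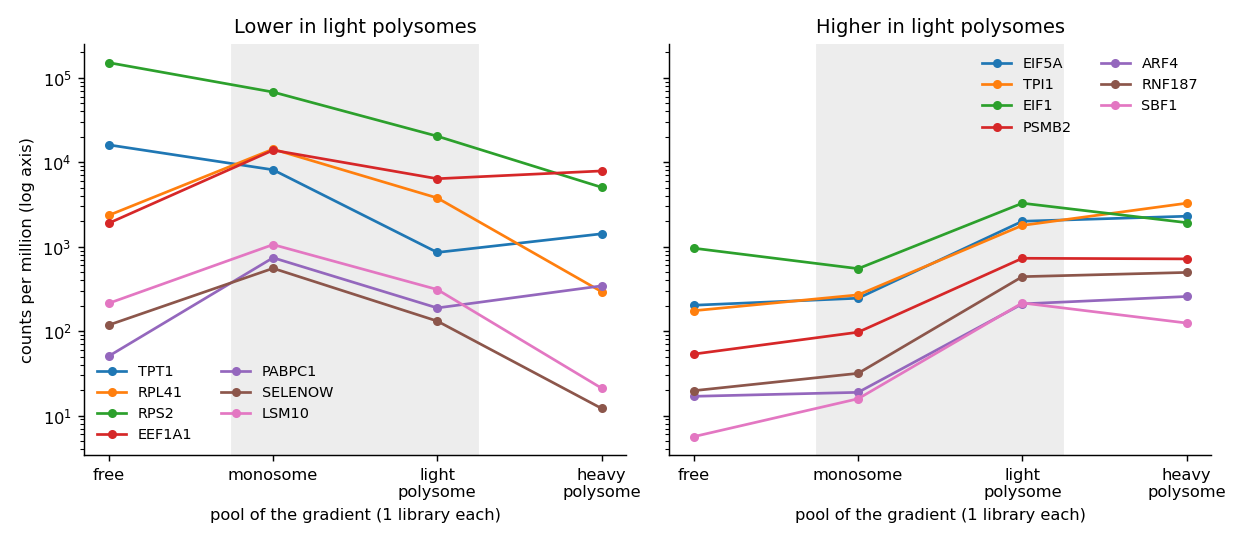
CPM (log axis) of 7 genes called lower (left) and 7 called higher (right) in the light polysomes across the 4 pools, with the compared pair shaded. Each point is 1 library; on the left SELENOW, LSM10 and RPL41 drop further in the heavy pool whereas EEF1A1, PABPC1 and TPT1 do not, and on the right all 7 climb from monosome to light polysome.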

How the data were processed

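The authors deposited an unscaled whole-number count of reads for each gene in each of the 4 pools. The aligner minimap2 (2.15), the counter featureCounts of Subread (1.6.2) and the build hg38 are named, per the submitters' processing notes. For annotation, strand setting and reads of several placements, the choice was not given in the sources used here. Per the labels' protocols the gradient ran from 10% to 50% sucrose, and capped RNA was bound by a mutant eIF4E after a lithium chloride step meant to remove small capped RNAs.

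From these counts, ratios of shares with a pseudocount of 0.5 were computed for genes with at least 30 counts in all, relative to the median gene. With 1 library per pool edgeR's quasi-likelihood test could not be fitted. A call needed a 2-fold difference and a 95% Clopper-Pearson interval clear of the median gene. The procedure was run on simulated libraries that held counting error alone. Such a run cannot show how far 2 libraries of the same pool would differ. Coordinates and frames are from GENCODE release 29 on the same build, 1 coding transcript a gene; 99.2% of tested genes had one. Starts are from RefSeq. CPM are counts scaled to a common library total.

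Named genes are the 15 extreme ratios at each end, given 100 or more counts over both libraries, each list's 3 most counted, highest and lowest members, the 10 most counted genes of each library, the extremes of each length class, and 16 fixed genes; the text leaves some out. Where 5 or fewer members of a list were called most are named whatever the rule, as are some others in larger counts (EIF3A, EIF3D, EIF3H, EIF3I, EIF3M, HSPH1, HSP90AA1, NPM1, NAP1L1, PABPC4, RPL5, VIM, EEF1D, POLR1A, MRTO4, NIP7, LARS and AIMP1), chosen after their values were seen. The gene lists and members were chosen with earlier results of these data known. Alternatives used edgeR 4.0.16 and DESeq2 1.42.0 for scaling only. Analyses ran in Python 3.11.15 (numpy 2.4.6, pandas 2.3.3, scipy 1.17.1, matplotlib 3.10.9) and R 4.3.3. Some genes are not reported here by name.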

Additional observations from a re-analysis of the deposited data

How the results depend on the processing

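No paired analysis was possible because each pool has 1 library and the labels carry no replicate numbers. The reference decided most changes. As plain shares of the library, which raised every ratio by 0.98, 3310 genes were higher and 278 lower, the ribosomal proteins lay at -0.62 and the other TOP mRNAs at -0.71, and the length classes, from short to long, at 0.34, 1.05, 1.09, 0.89 and 1.01, so that the class under 100 codons and that from 400 codons turned. Directions also turned for elongation and termination (0.15), complex I (0.70), complexes II to IV (0.59), the translocon (0.66), the tricarboxylic acid cycle (0.58) and the synthetases (0.16). With totals taken without ribosomal protein genes, ratios rose by 0.38: 1829 genes were higher and 735 lower, ribosomal proteins lay at -1.22, the length classes at -0.26, 0.45, 0.49, 0.29 and 0.41, complex I at 0.10 and the translocon at 0.057. TMM and DESeq2's size factors moved ratios by -0.01 and 0.01 and gave 1109 against 1246 and 1146 against 1214 calls.

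Minimum counts of 10, 100 and none put the class from 200 to under 400 codons at 0.16, 0.060 and 0.17, and that of 800 and more at -0.14, 0.48 and -0.18, on both sides of the median gene; the ZNF family turned to -0.027 with 10 and to -0.34 with none. With at least 10 counts in each library, 783 genes were lower and the class of 800 and more lay at -0.11. Without genes that overlap an exon of another gene, an alternative chosen after seeing the data, 3874 genes were tested, 565 were higher and 618 lower. Another scaling or call rule keeps the order of genes, so the rho with codons ending in G or C could not move. With other minimum counts, pseudocounts or gene sets, or with the whole coding sequence, it ran from 0.43 to 0.51, against 0.49 in the main run. These runs include some chosen after seeing the data. The monosome library limits precision at the light end, and the free library the values beside it.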
